A study of Mus musculus with 12 samples.

Results

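The healthy sciatic nerve of the young mouse is described here from the 4 wild-type control libraries of a series of 12. The libraries were taken by their sample label alone, but the controls as a subject were chosen with earlier results of these data known. The series set out to find how the nerve transcriptome changes when the phosphatase Mtmr2 is lost, as in Charcot-Marie-Tooth type 4B1 neuropathy, and when such mice are given niacin. Its 3 groups of 4 mice were controls (Mtmr2 wt/wt), Mtmr2 -/- mice and Mtmr2 -/- mice that received niacin. The other groups received none, and the paper describes the Mtmr2 -/- comparison mice as vehicle treated. Niacin was injected into the peritoneum at 120 mg/kg between P10 and P21 and then given by gavage in sustained-release form up to P30. All mice were taken at P30, at 1 month of age. The mutant line was kept on a 129/SvPas background. Each library held polyA-selected RNA from the sciatic nerve of 1 mouse. The series text gives 3 males and 1 female in each group but does not say which library is which. Only the controls, numbered 4497, 4498, 4499 and 4500, are used below, and no contrast with the other groups is made. Values for 4 libraries are always given in that order.

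In a peripheral nerve, each myelinating Schwann cell wraps a segment of an axon in many turns of its own membrane, and these turns are compacted by adhesive and basic proteins and built from large amounts of cholesterol, galactolipid and long-chain fatty acid. Smaller axons lie in Remak bundles of Schwann cells that make no myelin. Fibroblasts, blood vessels and resident macrophages fill the endoneurium, flattened perineurial cells form a barrier around each fascicle, and the epineurium outside holds collagen and fat. The cell bodies of the axons lie in ganglia and spinal cord, outside the dissected tissue.

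Totals ran from 26653828 to 28390961 counts per library, so that 3 counts, taken as the floor of detection, corresponded to 0.106 to 0.113 CPM (counts per 1000000 counts of the library). Of 43432 genes in the table, 13319 had no count in any of the 4 libraries and 13788 reached 1 CPM in all 4, of which 12826 were protein-coding. Protein-coding genes took 98.6% ± 0.152 of counts (SD, n = 4). CPM is the share of a library's counts that a gene takes and grows with the length of the transcript. Levels of different genes were therefore compared as TPM (transcripts per 1000000), counts per base of exon scaled to the same sum in every library. Where a gene is said to lead a group, this is by CPM unless TPM is named. Library 4498 differed from the other 3 in the genes of the sex chromosomes, which are given with the spread between libraries. In bulk tissue, fewer cells of a type and less RNA per cell cannot be told apart.

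A few genes dominated the nerve. The 10 largest held 14.1% ± 0.771 of all counts (SD, n = 4), the 100 largest 27.4% ± 0.871 and the 1000 largest 55.4% ± 0.805. Between 666 and 762 genes made up 50% of a library, and 5655 to 5881 genes made up 90%. On the mean of the libraries, 67 genes lay at or above 1000 CPM and took 24.4% of the counts. Myelin, matrix and mitochondrial genes led this upper end. Among the 100 genes with the highest CPM were 9 of the 10 listed genes of compact myelin and 5 of 10 of non-compact myelin. The fibrillar matrix added 7 of 16, the basal lamina 7 of 14 and the mitochondrial genome 7 of 37 genes.

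**Figure D1:**
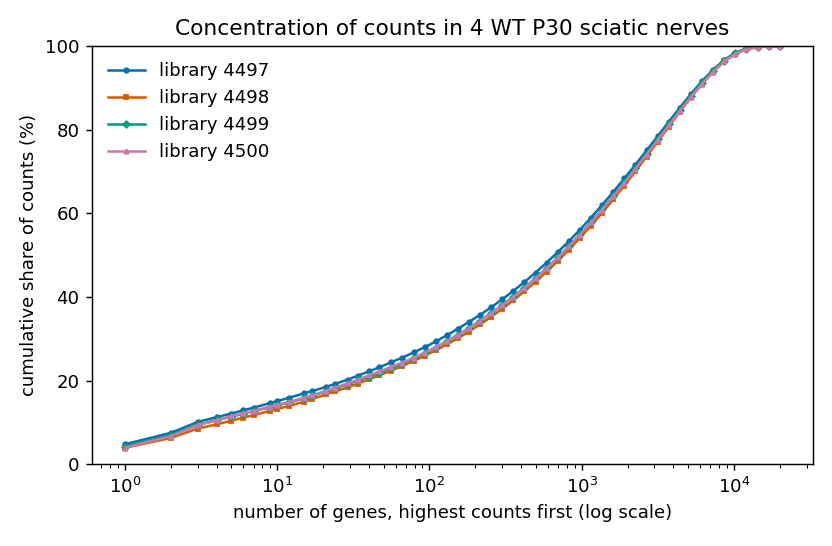
The plot shows the cumulative share of counts (%) against the number of genes, ordered within each library from the highest count (log scale), with 1 line per control library. The 4 lines lie close together, and library 4497 is the highest at 100 genes with 28.6%, against 26.5% to 27.2% in the other 3.

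Pmp22 and Mbp were among the genes with the most counts. Pmp22 encodes a tetraspan protein of compact myelin whose dosage is altered in the commonest form of Charcot-Marie-Tooth disease (ENSMUSG00000018217, GRCm38 chr11:63128982-63159547, plus strand). Its values were 27120, 23566, 27324 and 27484 CPM, with a mean of 26373 ± 1878 (SD, n = 4), and library 4498 lay below the other 3. Mbp, myelin basic protein, binds the cytoplasmic faces of the membrane to each other (ENSMUSG00000041607, chr18:82475146-82585637, plus strand). Its 26043, 22367, 24194 and 25953 CPM gave a mean of 24639 ± 1738.

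Per base of exon Pmp22 was again above Mbp and the distance was wider. Pmp22 had 39130 ± 2607 TPM and Mbp 10161 ± 669 TPM (SD, n = 4). The ratio of Pmp22 to Mbp in TPM was 3.75, 3.79, 4.06 and 3.81, above 1 in 4 of 4 libraries. With 4 libraries, a two-sided exact sign-flip test cannot go below p = 0.125, so orders are given as the number of libraries that show them. Mbp has 8469 exon bases in the union of its transcripts but 4797 in the longest, and the set of transcripts made in this tissue is not known from counts per gene. Counted against the longest transcript of each gene, Pmp22 exceeded Mbp by 2.82 ± 0.105 times, with the order kept in 4 of 4 libraries.

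Other genes of compact myelin spanned a wide range. Mal, a proteolipid of lipid-rich membrane domains, had 3323, 2747, 3163 and 3151 CPM and ranked 16 of all genes. The tetraspanin Cd9 had 1313 ± 95.1 CPM and Ncmap, a small glycoprotein of the myelin membrane of Schwann cells, 1256 ± 38.5 CPM (SD, n = 4). Cldn19, the claudin of Schwann cell tight junctions, had 839 ± 52.2 CPM. In TPM the falling order Pmp22, Mbp, Mal, Cd9, Ncmap held between each pair of neighbours in 4 of 4 libraries, whereas the next pair, Ncmap and Pllp, kept its order in 3 of 4. Counted against the longest transcript, Mal was above Cd9 in 3 of 4.

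Pllp and Pmp2 stood apart from the rest of the group. Pllp, plasmolipin, had 2069 CPM in library 4497 but 746.5, 807.5 and 775.6 CPM in the other 3, a ratio of 2.77 between the highest and the lowest. No other gene of compact or non-compact myelin reached that ratio, and the next was Pmp2 at 1.74. Pmp2 encodes P2, a fatty acid-binding protein of peripheral myelin, and had 9.60, 6.23, 6.95 and 10.8 CPM, rank 10225.

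The genes of non-compact myelin with the highest CPM were Prx and Drp2, partners in the complex that attaches the Schwann cell membrane to the basal lamina through dystroglycan. Prx, periaxin, had 6420, 5715, 6051 and 5666 CPM and ranked 7 of all genes (ENSMUSG00000053198, chr7:27499324-27520214, plus strand). Drp2 had 2491, 2876, 2615 and 2407 CPM, and Dag1, dystroglycan itself, had 1449, 1176, 1274 and 1027 CPM. All 3 lay above 1000 CPM in every library. Cnp, a phosphodiesterase of the cytoplasmic channels, had 1951 ± 139 CPM and Cadm4, the adhesion molecule of the Schwann cell internode, 1836 ± 156 CPM. In TPM Prx was again first with 3739 ± 316 TPM, but Cadm4 with 2968 ± 246 TPM and Cnp with 1876 ± 186 TPM lay above Drp2 with 1063 ± 108 TPM. Mag, the periaxonal adhesion molecule, had 300 ± 25.0 CPM, and in TPM Prx exceeded it by 14.5 ± 0.760 times (SD, n = 4). Gjb1, connexin 32, which forms the gap junctions between myelin layers, was the steadiest of the group with 145.7, 147.3, 149.8 and 147.9 CPM.

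**Figure D2:**
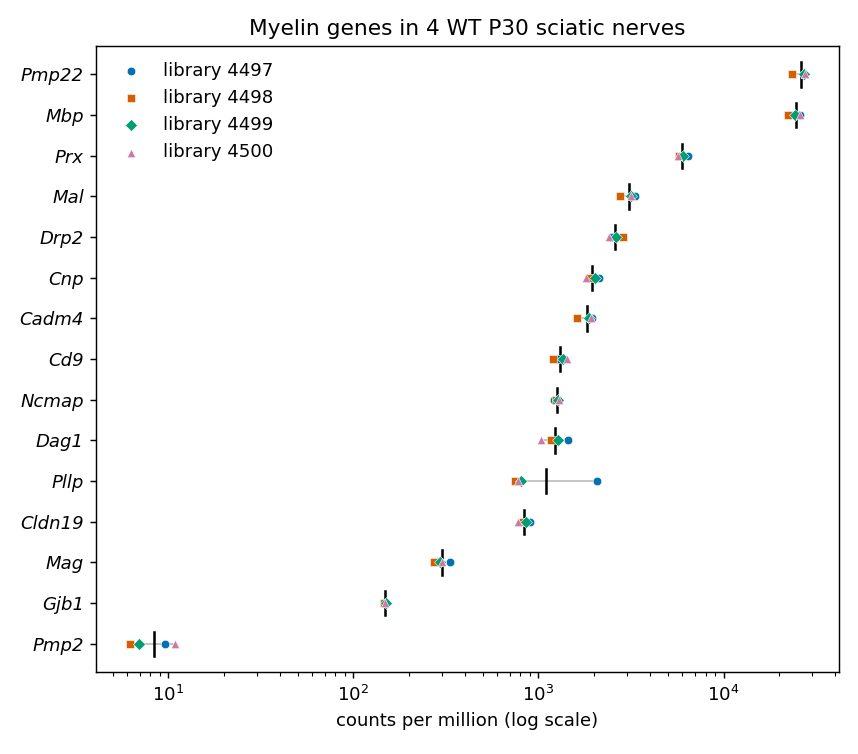
The plot gives the CPM (log scale) of 8 genes of compact and 7 of non-compact myelin that are named in the text, ordered by mean, with 1 point per control library and a black bar at the mean. Points of a gene nearly coincide except for Pllp, where library 4497 lies apart at 2069 CPM, and Pmp2 lies far below the other 14 genes at 6.23 to 10.8 CPM.

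The stretches of sequence before the start sites of genes from this upper end are shown here because their levels are the base of the description. They are the 250 bases upstream of the annotated start, 5′ to 3′ on the strand of the gene, from RefSeq on GRCm38.p6. Capitals mark every match to 5 short motifs on either strand, 3 of general promoter boxes and 2 of factors that act in Schwann cells. The TATA box was searched as TATAAA, its partner box by the letters CCAAT and the GC box bound by Sp1 as GGGCGG. The core bound by Sox proteins was searched as ACAAAG and a core of Egr sites as GTGGGNG. The last of these can overlap the GC box. Pmp22 has 4 start sites in the table, of which the first is Pmp22 start 1 (chr11:63128732-63128981, plus strand) and the second is Pmp22 start 2 (chr11:63131207-63131456, plus strand). Prx has 1 (chr7:27499074-27499323, plus strand). Fasn, fatty acid synthase, is shown for its wide spread between libraries (chr11:120824548-120824797, minus strand).
Pmp22 start 1: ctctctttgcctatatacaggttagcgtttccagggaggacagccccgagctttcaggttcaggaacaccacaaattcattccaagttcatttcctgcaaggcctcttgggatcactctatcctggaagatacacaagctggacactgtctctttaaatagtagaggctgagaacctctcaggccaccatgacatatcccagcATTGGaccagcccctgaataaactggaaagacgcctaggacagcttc
Pmp22 start 2: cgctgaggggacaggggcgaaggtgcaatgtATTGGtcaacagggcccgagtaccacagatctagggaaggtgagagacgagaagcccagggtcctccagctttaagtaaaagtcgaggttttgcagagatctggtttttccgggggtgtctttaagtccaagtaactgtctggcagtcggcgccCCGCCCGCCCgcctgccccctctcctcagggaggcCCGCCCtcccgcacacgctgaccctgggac
Prx: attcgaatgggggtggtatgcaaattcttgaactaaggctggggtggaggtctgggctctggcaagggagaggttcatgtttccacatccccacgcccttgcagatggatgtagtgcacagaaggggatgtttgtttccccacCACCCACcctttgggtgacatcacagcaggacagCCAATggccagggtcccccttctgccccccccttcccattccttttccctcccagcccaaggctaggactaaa
Fasn: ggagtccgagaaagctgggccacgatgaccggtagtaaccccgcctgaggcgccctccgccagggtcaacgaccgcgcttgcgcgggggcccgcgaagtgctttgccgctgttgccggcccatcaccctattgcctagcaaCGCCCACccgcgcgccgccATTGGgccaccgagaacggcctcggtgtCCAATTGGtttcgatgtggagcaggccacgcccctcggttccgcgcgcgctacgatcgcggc

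The CCAAT box of Pmp22 start 1 lies on the opposite strand, 47 to 43 bases before the start, and is the only match in that window. Start 2 holds 1 CCAAT box and 3 GC boxes, all on the opposite strand, and 2 of the GC boxes overlap. Fasn holds 3 CCAAT boxes, of which 2 on opposite strands overlap, and 1 match to the Egr core. Prx holds 1 CCAAT box, 73 to 69 bases before its start, and 1 match to the Egr core at 107 to 101 bases. None of these 4 windows holds TATAAA or ACAAAG, which says only that these letters are not in them. Over all promoters in the table, in windows of 300 bases that reach 50 bases past the start, CCAAT was found in 37.4%, GGGCGG in 35.7%, GTGGGNG in 31.6%, ACAAAG in 18.7% and TATAAA in 13.6%.

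The share of promoters with a motif differed by the level of the gene in the nerve. TATAAA stood in 26.2% of the 4241 promoters of protein-coding genes with a mean under 0.1 CPM, in 13.3% at 0.1 to 1 CPM and in 7.79%, 6.59% and 8.02% of those at 1 to 10, 10 to 100 and at least 100 CPM. GGGCGG went the other way, from 13.3% in the lowest class through 35.7% and 51.5% to 64.7% and 65.9% in the highest 2. GC content rose with it, from 46.1% to 62.1%. The 100 genes with the highest TPM did not follow the highest class, since TATAAA stood in 18.3% and GGGCGG in 52.4% of their 82 promoters, which belong to 64 of the 100 genes. These are descriptions of base composition and letters, with no test, and genes with several start sites count more than once.

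Transcription factors of the Schwann cell took 0.149% ± 0.00701 of counts, and 14 of 15 listed reached 1 CPM in all 4 libraries. Sox10, which specifies and maintains the Schwann cell and works with Egr2 at myelin genes, led with 471.9, 521.7, 496.8 and 420.2 CPM. Zeb2, a repressor of inhibitors of differentiation, had 270 ± 12.3 CPM and Tead1, which carries Hippo signalling to the genome, 204 ± 19.9 CPM. Egr2, the master factor of myelination, had 153.6, 123.1, 153.5 and 133.5 CPM, with 4497 and 4499 above the other 2. Pou3f1, the factor of the promyelinating stage that precedes Egr2, had 46.8, 39.1, 43.9 and 32.9 CPM, and Egr2 exceeded it by 3.96 ± 0.451 times in TPM. Sox2, found in immature Schwann cells, had 9.42 ± 0.633 CPM, and Sox10 exceeded it by 34.2 ± 2.07 times in TPM (SD, n = 4). Pax3, a factor of the embryonic lineage, was near the floor at 0.106, 0.0375, 0.0731 and 0.176 CPM. The neuregulin receptors of the Schwann cell were both present, Erbb3 at 196 ± 24.1 CPM and its partner Erbb2 at 96.3 ± 8.70 CPM, and Erbb3 was the higher in TPM in 4 of 4 libraries. Their axonal ligand Nrg1 had 0.953 ± 0.282 CPM in the nerve.

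Genes used to mark non-myelinating Schwann cells were led by Apod, the lipid carrier apolipoprotein D, at 1330, 1685, 1768 and 1833 CPM. Apod is also made by fibroblasts, so its counts cannot be given to Remak cells. Scn7a, an unusual sodium channel of non-myelinating Schwann cells, had 301 ± 22.8 CPM. In TPM it led the alpha subunits of the sodium channel family with 143.5, and Scn8a, the channel of mature nodes, followed with 2.56. The neurotrophin receptor Ngfr had 60.2 ± 6.71 CPM and the adhesion molecule L1cam 55.1, 53.6, 53.2 and 42.5 CPM. The 10 listed genes of the repair Schwann cell, the state taken after injury, were near absent, with 0.00148% of counts together. Jun and Ngfr are on other lists and were not counted among them. Only 3 of 10 reached 1 CPM in all 4 libraries, led by Lif at 5.60 ± 0.430 CPM, while Shh had 0.460 ± 0.279 and Gdnf 0.164 ± 0.116 CPM.

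Genes of the node and its flanks were read at widely different levels. Nfasc, whose glial form binds axonal partners at the paranode, had 482.8, 508.8, 454.0 and 374.9 CPM. Gldn, gliomedin, which gathers sodium channels at the node, had 274 ± 16.9 CPM, and the microvillar linkers Msn and Rdx had 337 ± 11.7 and 229 ± 6.42 CPM. Kcna1 and Kcna2 encode subunits of the potassium channels under the juxtaparanode, with 409 ± 47.1 CPM for Kcna1 and 85.9 ± 24.1 CPM for Kcna2. In TPM Kcna1 was 12.5 ± 3.23 times Kcna2 and above it in 4 of 4 libraries. Cntn2 and Cntnap2, adhesion molecules of the same domain, had 0.889 ± 0.372 and 0.363 ± 0.178 CPM.

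Genes of lipid synthesis, which myelinating Schwann cells and fat cells both use, were also high. Stearoyl-CoA desaturases, which make monounsaturated fatty acids, ranked 10 and 11 of all genes. Scd2 had 4756, 4103, 4421 and 4075 CPM, a range of little width. Scd1 had 4104, 7557, 3685 and 3253 CPM (ENSMUSG00000037071, chr19:44394455-44407879, minus strand), and library 4498 lay far above the other 3. Its mean was 4650 ± 1969 CPM over 4 libraries and 3681 CPM without 4498. In TPM Scd1 was therefore above Scd2 in 1 of 4 libraries, 4498, by 2.06 times, and at 0.964, 0.931 and 0.892 of it in the others. Scd1 is an abundant enzyme of fat tissue as well as of Schwann cells, and the 2 sources cannot be told apart here.

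All 23 genes of cholesterol synthesis and uptake were above 1 CPM in all 4 libraries, with a median of 164.7 CPM. Hmgcs1, HMG-CoA synthase, led with 2341, 1931, 2002 and 2374 CPM and ranked 24 of all genes. Srebf2, the transcription factor that drives the pathway, had 311 ± 30.6 CPM (SD, n = 4). The group took 0.757%, 0.648%, 0.632% and 0.695% of counts. Library 4497 held the highest value for 15 of the 23 genes and 4500 for the other 8, while over all 14390 genes with a mean of at least 1 CPM 4497 was highest for 13.8% and 4500 for 35.6%. Scaled by TMM factors, 4497 was highest for 18 of the 23 genes and for 22.1% of all genes.

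Galactolipids and sphingolipids give myelin much of its dry mass. Ugt8a, which makes galactosylceramide, had 1722, 1353, 1560 and 1485 CPM and ranked 40 of all genes. Fa2h, the fatty acid 2-hydroxylase of myelin, had 708 ± 71.2 CPM, Cers2, the synthase of very long-chain ceramides, 650 ± 44.3 CPM and Sptlc2, a subunit of the first enzyme of sphingolipid synthesis, 326 ± 10.7 CPM. All 14 listed genes were above 1 CPM in all 4 libraries, and together they took 0.421% ± 0.0273 of counts.

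Fatty acid synthesis showed the widest spread among the lists that took more than 1% of counts. Its 16 genes took 1.45%, 1.94%, 1.25% and 1.10% of counts, highest in 4498 and lowest in 4500, and 1.27% on average without 4498. Fasn, fatty acid synthase, followed the same order with 2025, 3308, 1279 and 823 CPM (ENSMUSG00000025153, chr11:120805846-120824547, minus strand). Acly, which supplies cytosolic acetyl-CoA, had 462.7, 756.5, 368.4 and 323.7 CPM, and Thrsp, a factor that promotes lipid synthesis, had 187.6, 342.7, 139.4 and 111.6 CPM. Elovl6, an elongase of long-chain fatty acids, had 618.0, 542.2, 516.5 and 475.0 CPM. Of these 4 genes, Elovl6 alone was not highest in 4498. Over the list, 10 of 16 genes were highest in 4498 under each of the 3 scalings, by library totals, TMM and DESeq2 size factors, while 4498 was highest for 34.1%, 28.7% and 25.3% of all genes under them. The desaturases Fads1 and Fads2, which act on polyunsaturated fatty acids, had 503.6, 468.5, 469.8 and 468.4 CPM and 194.0, 165.1, 170.7 and 168.5 CPM. Not all members varied. The elongases Elovl1 and Elovl5 differed little between libraries, with Elovl1 at 459.7, 442.3, 463.4 and 453.5 CPM and Elovl5 at 106.1, 110.2, 110.8 and 109.7 CPM.

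Most fat tissue markers were also highest in 4498, while their sum varied less. All 15 white adipocyte markers were above 1 CPM in all 4 libraries. Library 4498 held the highest value for 13 of the 15 by library totals, 12 with TMM and 11 with DESeq2 size factors, against the 34.1%, 28.7% and 25.3% of all genes given above. Car3, the carbonic anhydrase of fat and muscle, had 1791, 1896, 1423 and 1827 CPM, and Cfd, adipsin, 1331, 1395, 1192 and 1654 CPM. Fabp4, the fatty acid-binding protein of adipocytes, had 896.9, 1016, 700.8 and 971.7 CPM. Lpl, lipoprotein lipase, had 722.5, 736.1, 608.6 and 685.0 CPM. In TPM Cfd ranked 10 of all genes with 5265 ± 578 TPM. The summed markers took 0.669%, 0.747%, 0.564% and 0.710% of counts, with a ratio of 1.32 between the highest and the lowest library against 1.77 for the fatty acid synthesis genes. In library 4500 the markers were the second highest while fatty acid synthesis was lowest. The part of fat tissue in the levels of Scd1, Fasn or Lpl was not tested. Of brown fat, the uncoupling protein Ucp1 had 1.62, 5.21, 0.512 and 0.176 CPM, and the 8 listed markers took 0.00450% of counts.

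By share of counts the extracellular matrix was the largest listed group after compact myelin, an order that turned per base of exon. As a share of summed TPM the fibrillar matrix took 2.28%, below mitochondrial genes at 6.77% and ribosomal protein genes at 4.04%. The mitochondrial share may be too low by either measure, since nuclear copies of some of its genes are counted apart. The 16 genes of the fibrillar matrix took 4.10%, 3.17%, 3.71% and 3.59% of counts, and the 44 collagen genes, which overlap them, took 2.51% ± 0.404. Sparc, a collagen-binding glycoprotein made by fibroblasts and Schwann cells, had 11471, 10110, 11616 and 11604 CPM and ranked 4 of all genes (ENSMUSG00000018593, chr11:55394500-55423183, minus strand). In TPM it could not be ranked against Mbp, since it lay above it in 2 of 4 libraries. Col3a1, the chain of collagen III, had 8725, 5626, 7539 and 7217 CPM and ranked 6 (ENSMUSG00000026043, chr1:45311538-45349706, plus strand). Col1a2 and Col1a1 encode the chains of collagen I. Col1a2 had 6099, 3940, 4871 and 4453 CPM and Col1a1 had 4582, 2623, 3169 and 2809 CPM. In all 3 collagen genes library 4497 was the highest and 4498 the lowest. Dcn, decorin, a small proteoglycan that binds collagen fibrils, had 2530, 2770, 2937 and 2971 CPM, with 4497 the lowest.

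Collagen genes as a group were highest in 4497. Of the 40 with a mean of at least 1 CPM, 22 had their highest value there by library totals and 24 with either other scaling, while 4497 was highest for 13.8% of all genes by library totals, 22.1% with TMM and 27.6% with DESeq2 size factors. The order of Col1a1 and Col1a2 in TPM depended on the length used, at 1.28 ± 0.101 with all exons and 0.608 ± 0.0479 with the longest transcript, and no order is given for them. Col3a1 was above Col1a1 in 4 of 4 libraries with either length. Its rank by TPM was 24, below its rank of 6 by CPM, as TPM divides by its 9816 exon bases. With its longest transcript of 5564 bases as length the rank was 15.

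Basal lamina genes, made by Schwann cells and vessels, were all 14 above 1 CPM in every library and took 1.28%, 1.05%, 1.12% and 0.940% of counts. Col4a1, a chain of the collagen IV network, had 2020, 1681, 1817 and 1456 CPM, and Col4a2, its partner, 1394, 1168, 1198 and 969.9 CPM. Hspg2, the proteoglycan perlecan, had 1976, 1331, 1291 and 1149 CPM, and Nid1, which links laminin to collagen IV, 1322, 1116, 1148 and 1034 CPM. All 4 were highest in 4497 and lowest in 4500, as was the list as a whole. Of its 14 genes, 11 were highest in 4497 under each of the 3 scalings. Over all genes, 4497 was highest for 13.8% by library totals, 22.1% with TMM and 27.6% with DESeq2 size factors. Among laminins, Lama2, the chain of laminin 211 in the Schwann cell basal lamina, had 495 ± 89.2 CPM and Lama4 391 ± 44.7 CPM. Their order in TPM was not settled, with Lama2 above Lama4 in 1 of 4 libraries. Lamc1, the common gamma chain, had 977 ± 115 CPM. The laminin receptor chains Itga6 and Itgb1 had 872 ± 127 and 781 ± 51.1 CPM.

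**Figure D3:**
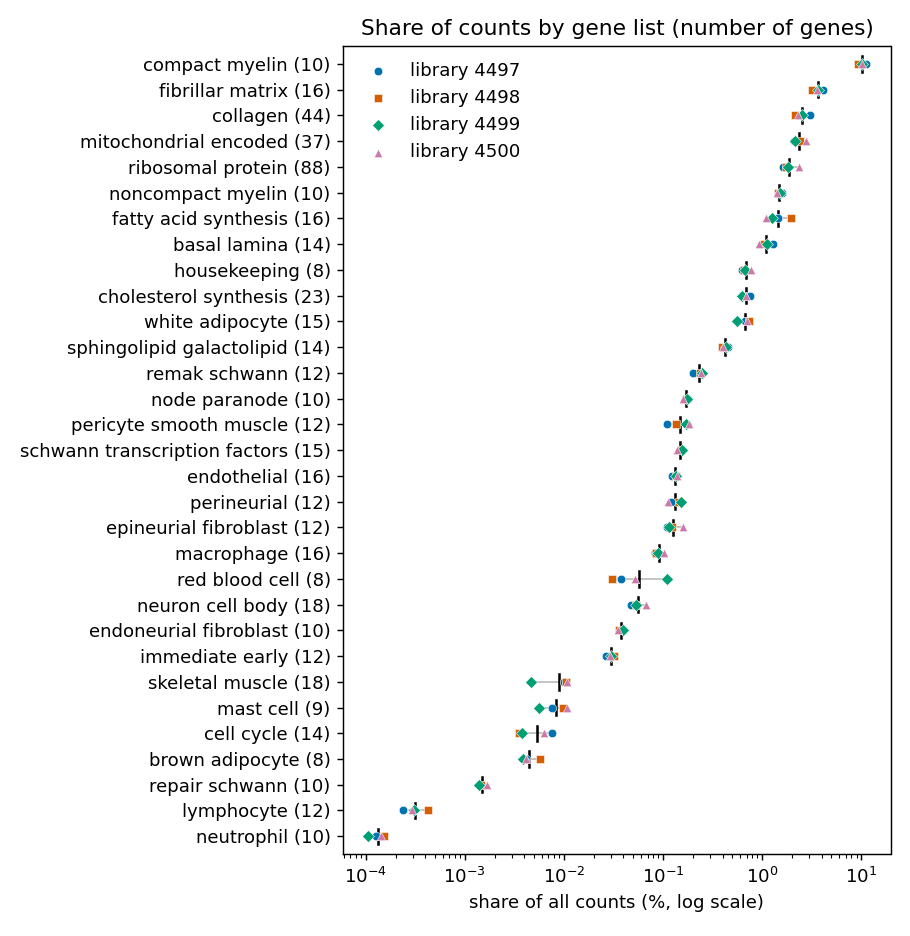
The plot gives the share of all counts (%, log scale) taken by each gene list, with the number of genes in brackets, 1 point per control library and a black bar at the mean. Compact myelin is first at 9.35% to 11.1% and the lymphocyte and neutrophil lists last, at means of 0.000318% and 0.000133%. Lists share genes in part, so the shares do not add up.

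Markers of the nerve sheaths and stroma were low, and most varied more between libraries than the median gene. The biological coefficient of variation (BCV), the spread beyond counting as edgeR estimates it with information shared between genes, lay above the median of all genes for 11 of 12 perineurial and 9 of 12 epineurial fibroblast markers. Itgb4, the beta4 integrin of perineurial cells and Schwann cells, had 463.8, 570.9, 519.0 and 388.7 CPM, and Cldn1, the claudin of the perineurial barrier, 197.2, 259.8, 276.8 and 198.5 CPM. Slc2a1, the glucose transporter of that barrier, had 205.6, 238.1, 263.8 and 201.1 CPM, and Casq2 had 85.1, 106.3, 125.3 and 95.1 CPM. All 4 had 4498 and 4499 above 4497 and 4500, and so did the 12 perineurial markers together at 0.121%, 0.147%, 0.151% and 0.113% of counts. This split was not counted over all genes. Of the 12 markers, 9 were highest in 4499 by library totals, 2 in 4498 and 1 in 4500. Over all genes, 4499 was highest for 16.5%. Markers of the epineurial fibroblast took 0.110%, 0.123%, 0.115% and 0.158%. Pi16, which marks a fibroblast population around vessels and in sheaths, had 113.0, 128.3, 115.9 and 288.5 CPM, and Dpt, dermatopontin, had 109.3, 124.5, 109.9 and 254.3 CPM. For both, 4500 lay far above the other 3, whereas Pdgfra, the receptor shared by most fibroblasts, had 257.2, 277.6, 263.3 and 223.3 CPM with 4500 the lowest. Efhd1 had 136 ± 9.25 CPM. Of the endoneurial fibroblast markers, Abca9 had 196 ± 19.7 CPM. Cxcl14, Plxdc1 and Osr2 followed at 35.5, 40.5 and 29.5 CPM in 4497 and at 36.0, 32.1 and 31.4 CPM in 4500. The 10 listed markers together took 0.0394%, 0.0360%, 0.0398% and 0.0349% of counts, highest in 4499 and lowest in 4500.

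Vessels were present in every library. The 16 endothelial genes took 0.124%, 0.137%, 0.135% and 0.137% of counts and included Vwf, von Willebrand factor, at 166 ± 12.2 CPM and the adhesion molecule Pecam1 at 148 ± 19.2 CPM, the highest of the list in CPM. Per base of exon Cldn5, the claudin of endothelial tight junctions, was higher at 214.9 TPM, against 82.8 TPM for Pecam1 and 36.2 TPM for Vwf with its 16064 exon bases. Ptprb, the endothelial phosphatase, had 113 ± 5.37 CPM and Cdh5, the cadherin of endothelial junctions, 110 ± 10.1 CPM. Contractile genes of smooth muscle varied far more. Tagln had 276.5, 415.2, 541.3 and 589.9 CPM, Acta2, smooth muscle actin, 127.9, 168.5, 320.3 and 390.0 CPM and Myh11, its myosin, 107.8, 105.6, 196.3 and 231.3 CPM. These 3 were higher in 4499 and 4500 than in 4497 and 4498. This split was seen after the fact and was not counted over all genes. Of the 12 pericyte and smooth muscle genes, 7 were highest in 4500, 4 in 4498 and 1 in 4497 by library totals. Over all genes, 4500 was highest for 35.6%, 4498 for 34.1% and 4497 for 13.8%. The pericyte marker Rgs5 had 187.2, 208.9, 230.9 and 232.0 CPM, a ratio of 1.24 between the highest and the lowest.

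Macrophage genes were all 16 above 1 CPM in all 4 libraries and took 0.0904% ± 0.00854 of counts. Lyz2, lysozyme of myeloid cells, had 152.6, 182.8, 183.4 and 236.5 CPM, and Csf1r, the receptor on which macrophages depend, 123.5, 122.7, 136.8 and 123.8 CPM. Mrc1, the mannose receptor, had 109 ± 3.99 CPM and C1qa, a chain of complement C1q, 88.8 ± 16.1 CPM. Library 4500 was highest for 11 of the 16 under each of the 3 scalings, while it was highest for 35.6%, 32.4% and 28.9% of all genes under them. Mast cells were seen through 7 of 9 genes, led by the proteases Mcpt4 at 16.5, 24.7, 12.8 and 29.0 CPM and Tpsb2 at 17.4, 21.8, 12.8 and 25.5 CPM.

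Lymphocytes, neutrophils and skeletal muscle left little trace, whereas red blood cells were read more clearly. The 8 red blood cell genes took 0.0382%, 0.0305%, 0.109% and 0.0528% of counts. None of 12 lymphocyte genes reached 1 CPM in all 4 libraries, and the T cell chain Cd3e had 0.0706, 0.0375, 0.256 and 0.211 CPM. None of 10 neutrophil genes did so either, and Ly6g, which defines the cell in mice, had 0 counts in every library, which allows at most 0.106 to 0.113 CPM. Skeletal muscle genes took 0.0100%, 0.0104%, 0.00467% and 0.0109% of counts. The fast myosin Myh4 had 13.4, 10.2, 2.05 and 13.7 CPM and the actin Acta1 9.91, 14.3, 1.57 and 12.01 CPM, with 4499 the lowest for both, and Tnnc2 had 0 counts in all 4. The haemoglobin gene Hbb-bs had 189.4, 151.3, 545.7 and 269.8 CPM and Hba-a1 136.6, 107.8, 396.9 and 184.4 CPM. Both were highest in 4499, and reads of Hba-a1 and Hba-a2, which are near-identical copies, may be split between them. Genes of central myelin and of oligodendrocytes, Mog and Olig2, had 0.651 ± 0.163 and 0.262 ± 0.161 CPM, and Alb of liver had 2.96 ± 1.27 CPM.

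Neuronal genes were low, with 10 of 18 above 1 CPM in all 4 libraries. Sncg, gamma-synuclein, had 368.2, 410.5, 411.1 and 513.1 CPM and made up most of the 0.0557% ± 0.00849 of counts taken by the list. It is known from fat cells as well as from neurons. The neurofilament genes Nefh, Nefm and Nefl had 11.1 ± 1.51, 8.95 ± 1.79 and 5.07 ± 1.19 CPM, and Prph, peripherin of small sensory fibres, had 10.7 ± 1.56 CPM. Thy1 had 27.8, 28.1, 27.7 and 50.3 CPM, with 4500 above the other 3, and is not limited to neurons. Nuclear factors of sensory neurons, such as Pou4f1 with 0.356 ± 0.189 and Isl1 with 0.188 ± 0.175 CPM, were close to the floor.

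Proliferation was low and differed between libraries. Mki67, found in all phases of the cell cycle outside rest, had 20.78, 7.24, 8.52 and 14.0 CPM, and Top2a, the topoisomerase of dividing cells, 13.8, 4.80, 6.62 and 12.2 CPM. For both, 4497 and 4500 lay above 4498 and 4499, a split that was not counted over all genes. Tpx2, a spindle factor, showed the same with 5.57, 2.33, 3.00 and 5.002 CPM. Cdc20, an activator of the anaphase complex, had 7.80, 6.30, 5.67 and 6.62 CPM. Over the list, 11 of the 13 genes with a mean of at least 1 CPM were highest in 4497 by library totals and with TMM and 12 with DESeq2 size factors, against 13.8%, 22.1% and 27.6% of all genes, and all 14 together took 0.00768%, 0.00350%, 0.00377% and 0.00631% of counts. Immediate early genes, which rise within minutes of handling or stress in many tissues, took 0.0297% ± 0.00240. Nr4a1 led them with 103 ± 6.70 CPM, followed by Jun at 45.7 ± 3.04, Zfp36 at 30.3 ± 5.94 and Dusp1 at 29.2 ± 7.68 CPM, and Fos had 8.61 ± 1.52 CPM.

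Mitochondrial genes and ribosomal protein genes each had their highest summed share in library 4500. Transcripts of the mitochondrial genome took 2.10%, 2.41%, 2.15% and 2.80% of counts, led by mt-Co1, a subunit of cytochrome oxidase, at 7678, 8799, 7839 and 10028 CPM. The cytochrome b gene mt-Cytb had 4183, 4795, 4316 and 5615 CPM and mt-Nd1, of complex I, 2442, 2771, 2453 and 3380 CPM. In TPM mt-Co1 and mt-Cytb ranked 3 and 4 of all genes. The levels of mt-Co2 at 51.7 ± 9.36, mt-Co3 at 46.2 ± 8.83 and mt-Atp6 at 31.8 ± 6.23 CPM are uncertain, since nuclear copies that are 100% identical over 678 to 783 bases, Gm28661, Gm28437 and Gm10925, are counted as genes of their own and had 66.2, 38.5 and 42.6 CPM. Gm28439, a copy of mt-Nd4 that is 100% identical over 876 bases, had 21.2 CPM, against 1812.5 CPM for mt-Nd4. How reads that match both a mitochondrial gene and a copy were counted is not stated. The summed share of the mitochondrial genome may therefore be too low. Ribosomal protein genes took 1.65%, 1.76%, 1.81% and 2.37% of counts. The 83 with a mean of at least 1 CPM were highest in 4500 without exception under each of the 3 scalings, while 4500 was highest for 35.6%, 32.4% and 28.9% of all genes under library totals, TMM and DESeq2 size factors. Rplp1 had 567.5, 596.0, 627.9 and 824.4 CPM, Rpl13a 517.9, 563.0, 593.8 and 800.7 CPM, Rpl4 515.1, 553.7, 571.0 and 697.7 CPM and Rpsa 432.9, 440.8, 458.6 and 623.2 CPM. For these 4, the lowest was 4497. Eef1a1, the elongation factor of translation, had 3201, 3296, 3398 and 3992 CPM, in the same order. Reference genes for normalising nerve samples were not exempt, as Ppia had 393.0, 389.6, 393.3 and 530.5 CPM and B2m 343.2, 359.9, 342.3 and 452.9 CPM, whereas Gapdh had 636 ± 23.8 and Actb 880 ± 45.9 CPM.

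**Figure D4:**
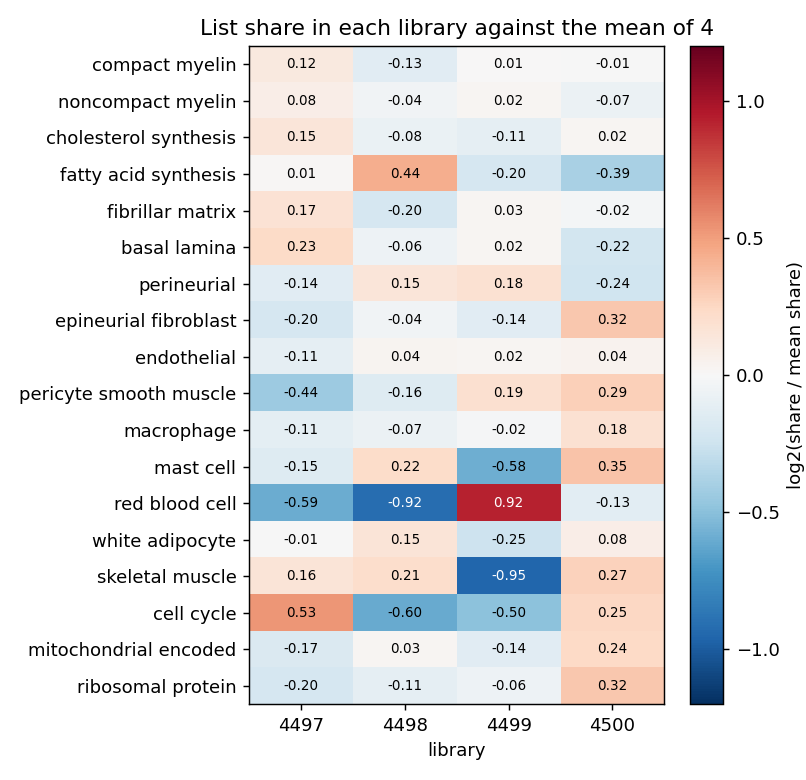
Each cell gives log2 of the share of counts of a gene list in 1 control library over the mean share of the 4, with red above and blue below the mean. Library 4497 is high in basal lamina and cell cycle genes, 4498 in fatty acid synthesis, 4499 in red blood cell genes and 4500 in ribosomal, mitochondrial and epineurial genes, while the 2 myelin lists stay between -0.13 and 0.12.

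The gene mutated in this disease model was expressed at a moderate level. Mtmr2, a lipid phosphatase acting on phosphoinositides, had 156.1, 135.9, 128.9 and 141.4 CPM, a mean of 141 ± 11.5 (SD, n = 4), and ranked 1313 (ENSMUSG00000031918, chr9:13748410-13806481, plus strand). Its catalytically inactive partners were present too. Sbf2, or Mtmr13, had 369.2, 341.2, 345.5 and 314.9 CPM and Sbf1, or Mtmr5, 94.1, 102.3, 86.0 and 80.9 CPM. In TPM Mtmr2 had 100 TPM, Sbf2 81.2 and Sbf1 46.6. The order of Sbf2 and Mtmr2 turned with the length used, at a ratio of 0.813 ± 0.0646 with all exons and 1.30 ± 0.103 with the longest transcript, whereas Sbf1 was below Mtmr2 in 4 of 4 libraries with both. The related phosphatases Mtmr1 and Mtm1 had 25.6 ± 0.573 and 12.4 ± 0.878 CPM. None of the 5 genes had a biological coefficient of variation above the median of all genes.

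Some of the largest genes were on none of the lists. Secisbp2l, a factor that binds selenoprotein messages, had 3744, 3161, 3406 and 2926 CPM and ranked 13. Ahnak, a giant scaffold protein, had 3049, 3587, 3344 and 2748 CPM and ranked 15 by CPM but 196 by TPM. Fth1, the heavy chain of ferritin, had 2340, 3268, 2873 and 3122 CPM, and Gsn, the actin-severing protein gelsolin, 2475, 3387, 2629 and 2910 CPM. For both, 4497 was the lowest and 4498 the highest. Apoe, the apolipoprotein that carries lipid between cells of the nerve, had 2060 ± 208 CPM and ranked 17 by TPM. Gm23935 ranked 5 by TPM, but this rests on an annotated length of 57 bases, shorter than the reads of 150 bases, and its 193 ± 51.8 CPM gave it rank 845 by CPM. The 538 genes on the lists together took 26.5% ± 0.944 of counts, so that most of the counts came from genes on no list.

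Control mice differed little for most genes and much for a few. The 14390 genes with a mean of at least 1 CPM were split by level. The median coefficient of variation (CV, SD over mean, n = 4) was 16.4% at 1 to 10 CPM, 8.12% at 10 to 100 CPM, 7.19% at 100 to 1000 CPM and 9.34% above. Counting error alone would give a median of 10.03%, 3.39%, 1.47% and 0.455% in these classes. Of the 9744 genes ranked for spread, with a mean of at least 10 CPM, 65.9% had a CV under 10% and 23 had a CV above 50%. The BCV had a median of 0.109 over 15529 genes.

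Xist, Ddx3y and Uty, genes of the sex chromosomes, held ranks 1 to 3 by BCV, and Eif2s3y ranked 5. Xist, the RNA that silences an X chromosome in female cells, had 2.26, 568.8, 2.71 and 2.18 CPM and the largest BCV, 1.38. The Y-linked genes went the other way. Ddx3y had 90.3, 1.61, 75.6 and 103.8 CPM, Eif2s3y 46.4, 1.28, 37.1 and 51.7 CPM, Kdm5d 23.0, 0.300, 18.3 and 22.8 CPM and Uty 17.9, 0.375, 14.8 and 17.3 CPM. Library 4498 alone had high Xist and low Y-linked genes. The labels give no sex per library, and anything else in which 4498 differs cannot be told apart from this or from the mouse itself.

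Outside the sex chromosomes, the widest spread was in Mmrn1, Cnn1, Cd209g, Zbtb16, Gm10800 and Fasn. Mmrn1, multimerin of lymphatic endothelium and platelets, had 0.706, 17.2, 12.6 and 36.9 CPM, the only gene among them that was near absent in 4497 alone. Cnn1, calponin of contractile smooth muscle, had 3.92, 4.76, 24.5 and 32.4 CPM, with 4499 and 4500 above the other 2, as for Acta2 and Myh11. Cd209g, a C-type lectin, had 6.42, 6.49, 6.54 and 24.2 CPM and was set by 4500. Zbtb16, a zinc finger factor induced by glucocorticoids, had 26.9, 56.1, 15.7 and 14.7 CPM, in the same order of libraries as Fasn. The predicted gene Gm10800 had 5.33, 19.6, 5.85 and 9.55 CPM. Without 4498, only 3 of the 10 genes with the largest BCV stayed among the 10 largest, Mmrn1, Cnn1 and Cd209g, against 8, 9 and 7 without 4497, 4499 and 4500.

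**Figure D5:**
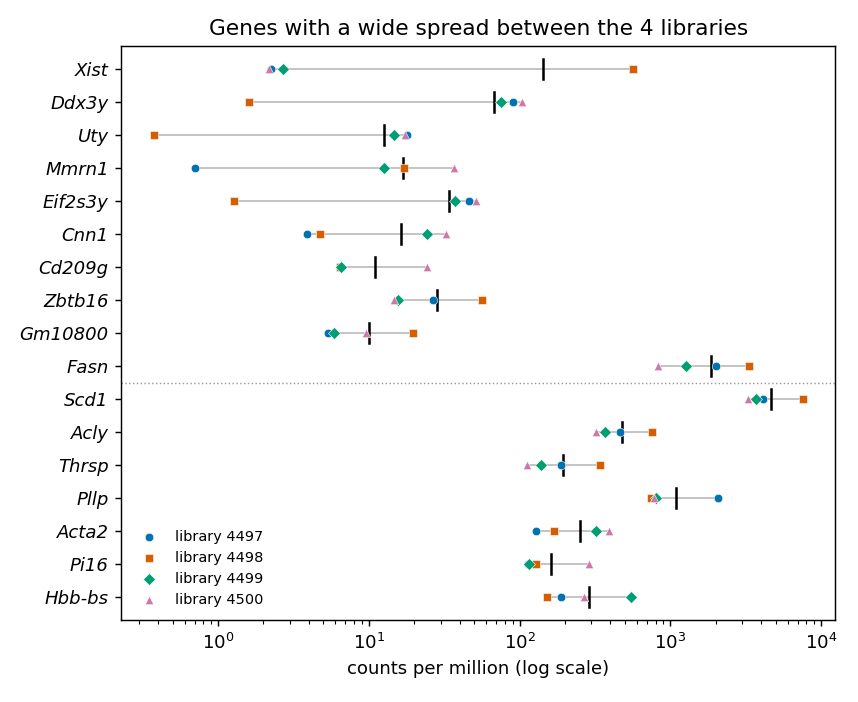
The plot gives the CPM (log scale) in each control library for the 10 genes with the largest BCV, above the dotted line, and for 7 further genes described in the text, with a black bar at the mean. Library 4498 lies apart for Xist and the Y-linked genes and is the highest for Fasn, Scd1, Acly and Thrsp, 4497 lies apart for Pllp, and 4499 and 4500 lie together for Cnn1 and Acta2.

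The 10 genes with the smallest BCV at a mean of at least 10 CPM were Eif4a3, Phkb, C330007P06Rik, Smc6, Stx5a, Ppp2r3a, Dda1, Ppp1r21, Yipf4 and Dnm1l, with BCV from 0.0741 to 0.0747. Eif4a3, an RNA helicase of the exon junction complex, had 66.8, 68.8, 67.2 and 69.9 CPM. Dda1, a component of a ubiquitin ligase, had 67.3, 68.3, 67.1 and 67.3 CPM, a CV of 0.785%. Dnm1l, the GTPase of mitochondrial fission, had 62.5, 63.9, 63.9 and 66.3 CPM. All 10 had means between 64.0 and 68.7 CPM, so the shared part of the estimate, which depends on the level, bears on which genes are named. Among the higher genes, Ndrg1, mutated in a demyelinating neuropathy, had 1825, 1812, 1907 and 1830 CPM, a CV of 2.33%, and the myelin genes Pmp22 and Mbp had CVs of 7.12% and 7.05%.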

How the data were processed

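Sciatic nerve RNA of 4 control mice was read as pairs of 150 bases on an Illumina HiSeq. The deposited table holds counts, whole numbers of reads per Ensembl gene without normalisation, which the authors made after base calling with CASAVA 1.9 and mapping to GRCm38 with STAR, per the labels and methods. Neither a version of STAR nor a counter, gene annotation or strand setting is stated (not given in the sources used here). Overlapping and antisense genes cannot be separated. The authors also deposited tables made with DESeq2 that hold fold changes and p-values of the group comparisons. Only their gene symbols were used, for 42615 of 43432 genes.

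The 4 libraries are separate mice. Their counts differed from each other by more than counting error (chi-square per degree of freedom 11.6 to 33.3 over the 6 pairs), so no table column repeats another, which does not tell mice from repeated preparations of 1 mouse. CPM was the count over the library total. TPM used the union of exons from GENCODE M21 on GRCm38, which held 42548 of the genes, or, as an alternative, the longest transcript. Spread was estimated with edgeR 4.0.16 in R 4.3.3 (filterByExpr, TMM and tagwise dispersion with an intercept only), tested on simulated data, and with DESeq2 1.42.0 as an alternative. Nuclear copies of mitochondrial genes were found with blastn 2.17.0. No groups were compared and no p-value was computed. The 31 gene lists, 3 lists by symbol and the controls as a subject were chosen with earlier results of these data known. The families named for channels, laminins, integrins and receptors were picked after their values were seen. Genes named were the 20 highest by CPM and by TPM, the study's markers, all genes of compact myelin and the sex chromosomes, the 4 highest of each list, members near or at 0 where few, and the 10 with the largest and smallest BCV at a mean of at least 10 CPM. Some genes of the lists count in the totals of their list but are not reported here by name. Others in the text were chosen after their values were seen. Floors of 3 counts cover counting error only. Alternatives were TMM and DESeq2 scaling, other lengths and cut-offs, and leaving out each library.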

Additional observations from a re-analysis of the deposited data

Results flagged for a closer look

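In 211 values described above (177 genes and 34 lists), each library was set against the other 3, and in 20 the gap to the nearest library, as a part of the whole range, exceeded Dixon's 95% critical value for 4 samples. In values not chosen for their spread about 1 in 20 would do so by chance, but some of these genes were chosen for a large BCV or after their values were seen, so that rate is no measure for the count here. Library 4500 was the one apart in 10 of the 20, 4498 in 5, 4497 in 3 and 4499 in 2.

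In 4500, the values above the rest were Pi16 at 288.5 CPM, Dpt at 254.3 CPM, Thy1 at 50.3 CPM, Rpsa at 623.2 CPM, Ppia at 530.5 CPM, B2m at 452.9 CPM, Gm23935 at 270.6 CPM, Cd209g at 24.2 CPM and the list of repair Schwann cell genes at 0.00167% of counts, and L1cam lay below the rest at 42.5 CPM. In 4498, Xist lay above at 568.8 CPM, as did the list of sex-linked genes at 0.0572% and of brown adipocyte genes at 0.00579% of counts, while Pmp22 at 23566 CPM and Sparc at 10110 CPM lay below. In 4497, Pllp at 2069 CPM and Fads1 at 503.6 CPM lay above, and the endothelial list lay below at 0.124% of counts. In 4499, Csf1r lay above at 136.8 CPM and the list of skeletal muscle genes below at 0.00467%. The other 3 libraries had Thy1 at 27.7 to 28.1 CPM and Pllp at 746.5 to 807.5 CPM.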

How the results depend on the processing

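Of 103 values recomputed with all 4 libraries under other settings, 67 stayed within the SD of the 4 libraries, or within 1.5 times for counts, ranks and the BCV, 36 moved further, and none changed direction, as no contrast was made. Leaving out 1 of 4 libraries cannot move a mean beyond its SD, so such values say nothing of stability by this measure. Of the 208 values recomputed so, the 1 that changed by over 1.5 times was the share of the sex-linked genes, 0.0275% of counts with all libraries and 0.0175% without 4498. Without each library in turn Scd1 ranged from 3681 to 5115 CPM, Pmp22 from 26003 to 27309 CPM, fatty acid synthesis from 1.27% to 1.55% of counts and the median BCV from 0.0918 to 0.125. With the longest transcript as length, Mbp had 14045 TPM and rank 4, and Col3a1 3580 TPM and rank 15. As a share of summed TPM in place of counts, 30 of 34 lists moved and 19 rose. Compact myelin then took 13.1%, fibrillar matrix 2.28%, fatty acid synthesis 0.942%, cholesterol synthesis 0.531%, white adipocyte genes 1.09%, mitochondrial genes 6.77% and ribosomal protein genes 4.04%. Without mitochondrial genes the 100 largest genes held 26.3% of counts. With no filter on low counts the median BCV was 0.247, over 30113 genes, and with DESeq2's unmoderated estimate it was 0.0780. Leaving genes under 200 bases out of TPM, an alternative chosen after seeing the data, moved no marker beyond its spread. No paired analysis was possible because the controls alone are described and their replicate numbers are shared with no other group. Limits are the 4 mice, unknown strand, lengths that decide orders between genes, and read totals that leave genes under about 0.1 CPM undetectable.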

Other observations

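Long non-coding RNAs added a small share of counts, of which the lists above describe Xist. LincRNA genes, Xist included, took 0.401%, 0.574%, 0.411% and 0.452% of counts. Malat1, a nuclear RNA of speckles, had 1154, 1685, 1151 and 1082 CPM, and Neat1, the scaffold of paraspeckles, had 718.0, 1156, 782.8 and 936.4 CPM, both highest in library 4498. The imprinted RNAs Meg3 and H19 had 179 ± 12.7 and 149 ± 29.8 CPM (SD, n = 4). Gm42418 had 308.0, 337.3, 324.1 and 513.5 CPM, highest in library 4500, and Dubr had 173 ± 7.65 CPM. The unnamed gene 1700020I14Rik was nearly the same in all 4 libraries at 225.1, 229.0, 225.9 and 227.1 CPM. These genes were chosen after their values were seen.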
